A study of Mus musculus with 18 samples.

Results

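Transcript levels were compared between Cyp26a1-/- mouse embryonic stem (ES) cells that had received retinoic acid (RA) for 72 h and for 8 h, so that late changes can be told from early and transient ones. The members are the 5 arrays whose titles name knockout cells with RA and leukemia inhibitory factor (LIF), 2 at 72 h and 3 at 8 h, of 18 arrays in all. The study set these cells beside wild-type cells of the AB1 line to ask how the loss of Cyp26a1, an enzyme that clears RA, alters the response to RA. Each array measured the biotin-labelled RNA of 1 sample. Both groups carried the disruption on both alleles, were given 100 nM RA and were kept with LIF, and differ in the length of treatment. Knockout control cells with LIF and no RA, taken at 8 h (3 arrays), and the matching wild-type groups (3 controls, 3 at 8 h of RA and 2 at 72 h) serve as references. The labels do not say how many clones the knockout cells came from, nor whether repeats were separate cultures. No untreated group at 72 h was used, so length of RA treatment and time in culture cannot be told apart.

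RA is a vitamin A derivative that enters the nucleus and binds RA receptors, which sit on DNA with retinoid X receptors at paired short motifs. Bound receptors induce genes that feed back on RA itself, among them Cyp26a1, and genes that give cells a position along the body axis, such as the Hox genes. In mouse ES cells RA drives exit from the stem cell state, towards extraembryonic endoderm or neural fates depending on dose and culture, while LIF acts through STAT3 to hold the stem cell state.

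The promoters of Cyp26a1 and Rarb are shown because they were the only promoters of the named genes that held the letters of an RA response element, and because both genes rose by 8 h and again by 72 h. The search looked on both strands for 2 copies of a receptor motif, in any combination. A copy was AGGTCA, or else AGTTCA, or else GGGTCA, or else GGTTCA, and the pair had to be in the same direction with 1, 2 or 5 bases between them, so that matches of different spacing could overlap. Both sequences run from 250 bases before the gene's start to 50 after it, 5′ to 3′ along the gene, in RefSeq's GRCm38.p6, and the capitals mark the matched pair with its 5-base spacer.
Cyp26a1, chr19:37697558-37697857, plus strand: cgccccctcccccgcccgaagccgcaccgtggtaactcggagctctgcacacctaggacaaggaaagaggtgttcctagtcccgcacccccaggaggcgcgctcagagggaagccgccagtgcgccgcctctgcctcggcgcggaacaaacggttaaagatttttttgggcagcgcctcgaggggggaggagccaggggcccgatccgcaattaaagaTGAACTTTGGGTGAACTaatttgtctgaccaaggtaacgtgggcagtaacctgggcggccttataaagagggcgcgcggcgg
Rarb, chr14:16575427-16575726, minus strand: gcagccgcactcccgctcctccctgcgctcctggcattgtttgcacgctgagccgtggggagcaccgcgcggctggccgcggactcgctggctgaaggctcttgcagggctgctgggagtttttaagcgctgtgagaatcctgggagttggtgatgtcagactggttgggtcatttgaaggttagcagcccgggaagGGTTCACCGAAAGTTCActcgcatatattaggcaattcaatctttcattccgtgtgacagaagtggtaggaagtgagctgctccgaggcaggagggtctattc
The match reads on the opposite strand in Cyp26a1 and on the gene's own strand in Rarb. Of the 141 named genes, 102 had a promoter in the table. A match with 5 bases between the copies was present in 32 of all 32851 promoters of this length (0.0974%), and one with any of the 3 spacings in 193 (0.588%). A match is a description of these letters and does not show that a receptor binds there.

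Some facts of the arrays precede the results. The median signal of the 5 arrays ran from 57.5 to 72.2 units, and between 40.9% and 44.2% of their probe sets reached 100 units. Signals under 50 units were set to that floor, and a fold against a group wholly at the floor is a lower bound, written "at least". Arrays at the floor show no spread, so standard errors and p-values of genes with floored groups can be too small. Socs3, a direct target of LIF signalling, read 215 units on replicate 1 of the knockout controls although that array is labelled with LIF, against 6001 and 5722 units on the other 2 controls. It read 4551 units on the knockout control array labelled without LIF, so the label of the first array is in doubt. Comparisons with controls are therefore also given without it. Replicate 1 of the wild-type controls was low in the same way, at 367 units against 4484 and 3792 on the other 2 and 3800 without LIF, so its label is in doubt too. The 5 RA arrays read 3525 to 5232 units. The blood marker Ptprc was at or under the floor on all 5 arrays, and so were 4 of 7 fibroblast markers (Col1a1, Dcn, Lum and Postn). Of the other 3, Col1a2 was above it on 3 arrays (97.7 units at most), Col3a1 on 1 (56.6 units) and Thy1 on all 5 (111 to 479 units). The summed signal of the 7 fibroblast markers was 410 to 661 units at 8 h and 261 to 262 at 72 h. The 5 stem cell markers summed to 63379 to 68983 units at 8 h and 53934 to 58405 at 72 h, and all 5 were above the floor on every RA array.

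Cyp26a1, the disrupted gene, encodes the cytochrome P450 that oxidises RA. In knockout cells its probe set read 52.6, 9.81 and 23.3 units in controls, 193, 216 and 193 units at 8 h and 2873 and 3075 units at 72 h. Each time point stood clear of the earlier one, and the level at 72 h was 14.8-fold that at 8 h (log2 difference 3.89 ± 0.32, SE; limma adjusted p = 2.03e-06). Wild-type cells read 17.5 to 84.2 units in controls, 637 to 1695 units at 8 h and 3402 and 3211 units at 72 h, and the arrays without LIF read 53.8 units in knockout and 33.7 in wild-type cells. No source used here places the probe set inside or outside the disrupted exons, so these readings are no check of the knockout.

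Across 11388 genes tested, 2188 differed between 72 h and 8 h in knockout cells at an adjusted p under 0.05 (19.2%). Of these, 1445 were higher at 72 h (12.7%) and 743 were lower (6.52%). Counts of gene-list members that rose or fell, given below, are to be read beside these shares. At least a 2-fold difference was reached by 728 of the higher and 215 of the lower genes, and more than 4-fold by 107 and 33. By these counts the rises were larger as well as more numerous, and the filter on dim genes, described below, adds to the rises alone. With quantile scaling 1209 genes were higher and 824 lower. The median log2 difference of all genes was 0.06 and the median standard error 0.22. Arrays of the groups did not overlap for 5342 genes (46.9%), called or not, and 2185 of the called genes were among them. A set of 554 genes passed the filter on dim genes only through the 72 h arrays, and 193 of them were called higher and 0 lower, which the filter fixes in direction. Against controls, 2622 genes differed at 72 h (23%), 1681 higher (14.8%) and 941 lower (8.26%). Without control replicate 1, whose LIF label is in doubt, 2140 differed, 1426 higher and 714 lower. With only 2 arrays at 72 h, leaving either out gave 1088 genes (without replicate 1) or 1011 (without replicate 2). Without each in turn, 1040 and 979 of the 2188 genes were still called, and 700 were called in both.

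**Figure D1:**
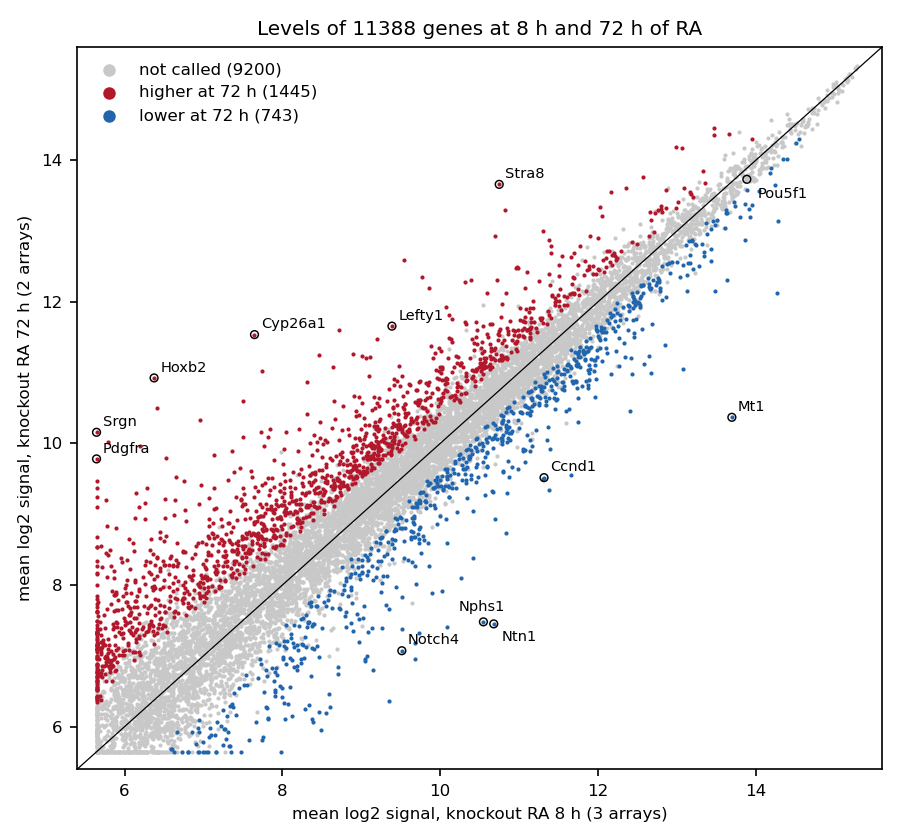
Each point is 1 of 11388 genes, at its mean log2 signal on the 3 arrays of 8 h (x axis) and the 2 arrays of 72 h (y axis) in knockout cells, with signals under 50 units set to 50. Red marks the 1445 genes called higher at 72 h, blue the 743 called lower and grey the rest, the line marks equal levels, and the column of red points at the left edge holds genes at the floor at 8 h.

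The largest rises joined a Hox gene, a growth factor receptor, proteins of endocytosis and an enzyme of methionine metabolism. Hoxb2, a homeobox gene of the hindbrain, read 59.8, 143 and 66.6 units at 8 h and 1870 and 2023 units at 72 h. Both 72 h arrays were far above the 3 at 8 h, a 23.5-fold rise (4.55 ± 0.46, adjusted p = 1.19e-05). Pdgfra, a receptor for platelet-derived growth factor and a marker of primitive endoderm, read 11.3, 17.7 and 20.6 units at 8 h and 805 and 963 units at 72 h. It was thus under the floor on every 8 h array and well above it on both 72 h arrays, at least 17.6-fold (4.14 ± 0.31, adjusted p = 8.09e-07). Srgn, the proteoglycan serglycin, went from 17.7, 35.4 and 4.39 units to 1067 and 1223 units (at least 22.8-fold, adjusted p = 0.00403). Bhmt, which remethylates homocysteine with betaine, went from 50.4, 51.2 and 64.6 units to 1588 and 684 units (18.9-fold, adjusted p = 3.30e-06). Its 72 h arrays were further apart than those of the other genes of this group, yet both lay more than 10 times above every 8 h array.

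Dab2 and Cubn, which act together in endocytosis, were among the genes of largest rise. Dab2, a clathrin adaptor of visceral endoderm, read 70.8, 97.1 and 88.5 units at 8 h and 1341 and 1575 units at 72 h (17.1-fold, 4.10 ± 0.67). Cubn, the endocytic receptor cubilin that Dab2 serves, read 4.72, 4.17 and 12.2 units at 8 h and 452 and 666 units at 72 h (at least 3.46 ± 0.58 on the log2 scale). Both were low on all 8 h arrays and high on both 72 h arrays. Amot, the angiomotin that restrains YAP, rose at least 12.1-fold and Pgam2, the muscle form of phosphoglycerate mutase, 13.6-fold. Hoxb6 (at least 14.2-fold), Sox17 (at least 13.2-fold) and Hoxa4 (10.8-fold) complete the 12 genes of largest rise, together with Cyp26a1. These folds are of each gene's brightest probe set, and averaging a gene's probe sets gave smaller log2 rises, still called, of 2.50 for Pdgfra, 2.14 for Dab2, 3.00 for Sox17, 1.36 for Amot and 2.02 for Hoxa4.

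Among the falls, the metallothionein and netrin genes led. Mt1, a metallothionein that binds zinc, read 14755, 10118 and 15685 units at 8 h and 1436 and 1218 units at 72 h. The log2 difference was -3.33 ± 0.20 (adjusted p = 2.03e-07), and no 72 h array came near an 8 h array. Ntn1, the guidance cue netrin 1, fell from 1679, 1398 and 1877 units to 192 and 159 units (-3.23 ± 0.17, adjusted p = 4.21e-08). Nphs1, which encodes nephrin, fell by 3.07 on the log2 scale, Enox1, a cell-surface oxidase, by 2.99, and Liph, a lipase that makes lysophosphatidic acid, by 2.73. For these 3 genes the 8 h arrays read 523 units or more and the 72 h arrays 186 or less.

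The other large falls touched signalling genes. Tgfb1, a transforming growth factor ligand, went from 1181, 522 and 903 units to 179 and 117 units (-2.51 ± 0.40, adjusted p = 0.000533). Ddx58, which encodes the RIG-I sensor of viral RNA, fell by 2.40, Plekha4, a lipid-binding protein of Wnt signalling, by 2.54, and Cdk6, a kinase of the G1 phase, by 2.35. S100a6, a calcium-binding protein, fell by 2.67 (adjusted p = 0.00550), and without replicate 1 of 72 h its difference was -2.42 with adjusted p = 0.0665. Gpx2, a glutathione peroxidase of epithelium, fell by 2.37 (adjusted p = 0.0364). Its 72 h arrays were 17.9 and 106 units, and it was not called without any 1 of the 5 arrays (-1.82 without replicate 1 of 72 h, adjusted p = 0.266). With probe sets averaged the differences shrank, still called, to -1.89 for Mt1, -2.05 for Ntn1, -1.49 for Enox1, -1.87 for Liph, -1.54 for Tgfb1, -1.11 for Ddx58, -0.69 for Plekha4 and -1.62 for Cdk6.

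Setting this comparison beside the 8 h response sorted genes by time. After 8 h of RA, 109 genes differed from knockout controls (0.957%), 98 higher (0.861%) and 11 lower (0.0966%). That count varied with single arrays: 64 without control replicate 1, whose LIF label is in doubt, 41 without control replicate 2, 40 and 36 without RA replicates 1 and 3. With the replicate number as a block it was 116 within the 16 arrays and 192 among knockout arrays alone. Of the 98 genes higher at 8 h, 36 rose again by 72 h (called "continued"), 55 were not called between 8 h and 72 h ("held") and 7 fell ("transient"). Of the 11 lower, 3 fell further, 7 were held and 1 rose. Both contrasts use the 8 h arrays with opposite sign, so a high reading there favours a transient label, and these class counts are a description. Without control replicate 1 the higher classes held 25 continued, 31 held and 5 transient genes, of which 22, 28 and 4 were the same genes. Late genes, with an 8 h difference from control that was neither called nor over 0.5 in size, made up 1288 of the 1445 genes higher at 72 h and 666 of the 743 lower. The remaining 120 and 67 genes had an uncalled 8 h difference of at least 0.5. The 8 h comparison called only 0.957% of all genes, so nearly any set of genes would consist mostly of genes it did not call. The number of late genes is therefore not read as a result about timing.

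**Figure D2:**
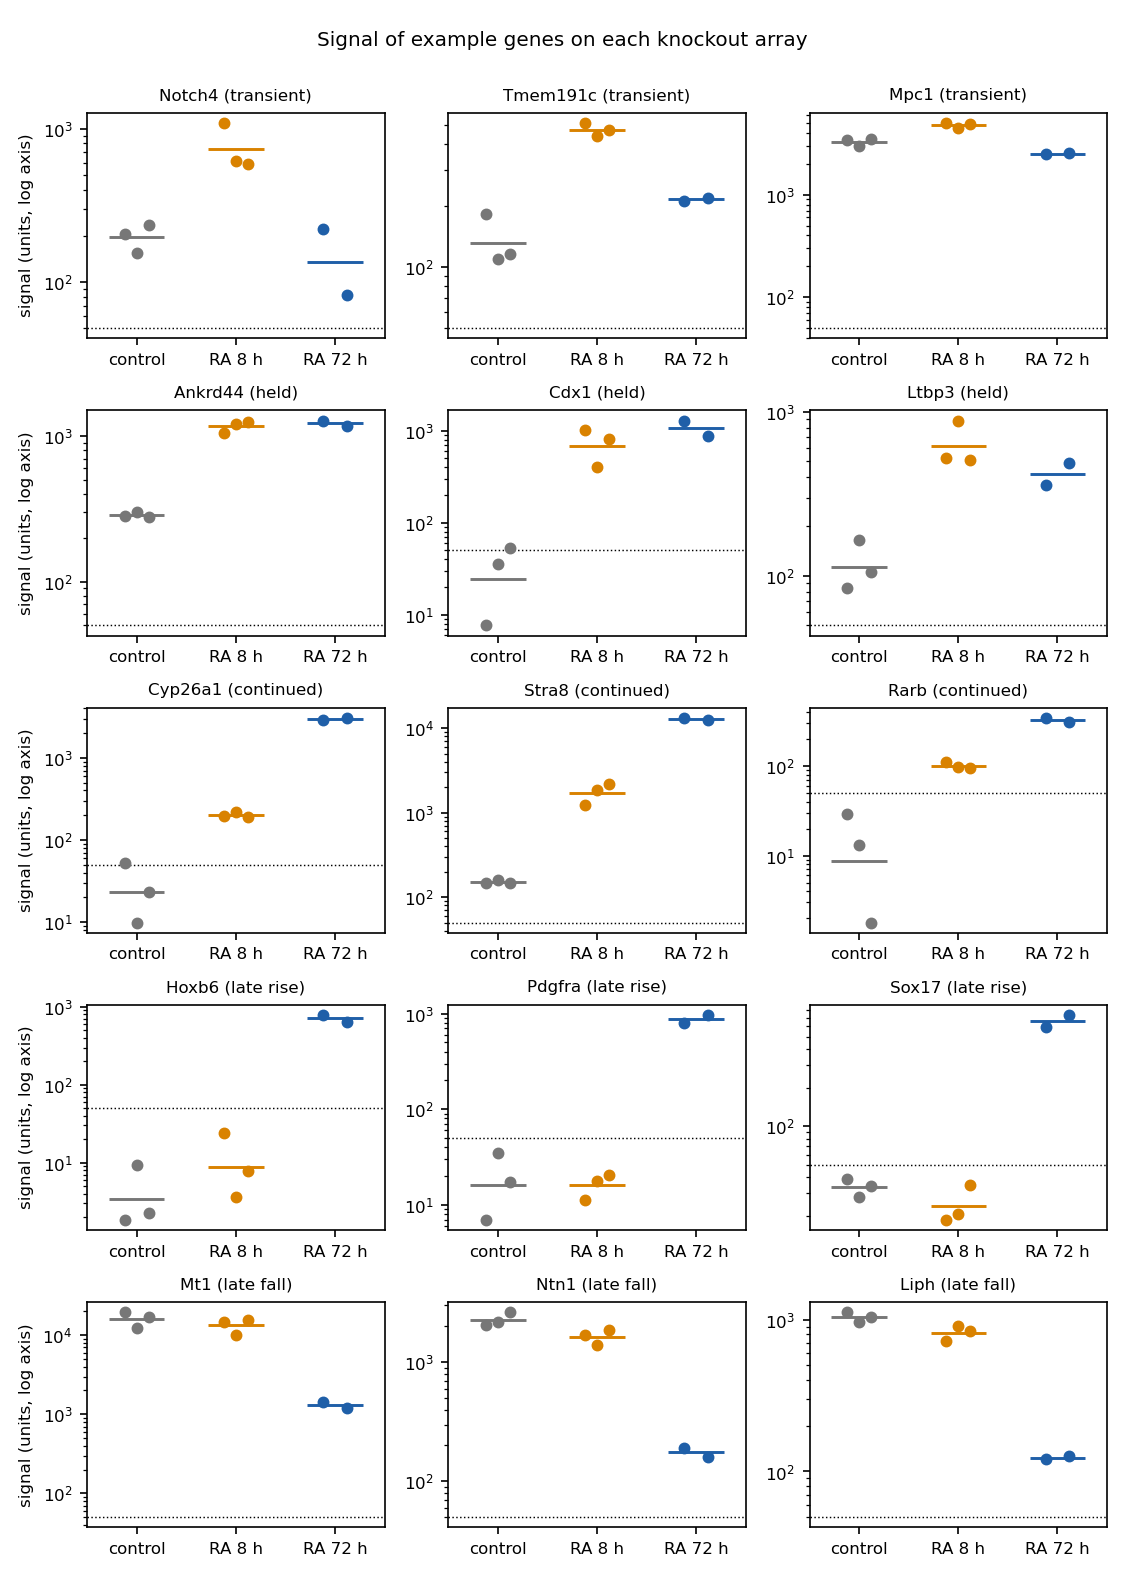
Each panel gives 1 gene's signal (y axis, units, log scale) on each knockout array, grey for controls, orange for 8 h and blue for 72 h of RA, with a bar at the geometric mean and a dotted line at the floor of 50 units. Rows show genes of the transient, held, continued, late rise and late fall classes, and Notch4 returns to 221 and 81.8 units at 72 h whereas Cyp26a1 climbs to 2873 and 3075.

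Transient genes were few. Notch4, a receptor of the Notch family, read 205, 154 and 237 units in controls, 1085, 614 and 587 units at 8 h and 221 and 81.8 units at 72 h. Every 8 h array stood above all controls and both 72 h arrays. Its log2 change was 1.90 ± 0.35 by 8 h (adjusted p = 0.0161) and -2.44 ± 0.39 from then to 72 h (adjusted p = 0.000523), or -0.81 with probe sets averaged. The first call was lost without control replicate 2 (adjusted p = 0.0825) or RA replicate 1 (adjusted p = 0.0871). Tmem191c, a transmembrane protein, read 181, 109 and 115 units, then 508, 437 and 471 units, then 211 and 218 units. It was up 1.84 ± 0.23 and then down (-1.13 ± 0.26, adjusted p = 0.00669, or 0.0563 without replicate 1 of 72 h). Mpc1, a subunit of the mitochondrial pyruvate carrier, went from 3411, 3022 and 3501 units to 4985, 4515 and 4871 units and then to 2496 and 2546 units. Its 72 h arrays were therefore under every control array as well as under every 8 h array (-0.92 ± 0.10, adjusted p = 2.95e-05). The rise of Mpc1 by 8 h (0.53, adjusted p = 0.0109) was not called without control replicate 2 or without RA replicate 1 or 3 (adjusted p up to 0.0699). Smpd4, a neutral sphingomyelinase, rose by 0.82 and then fell by 0.56, the fall with adjusted p = 0.0538 and 0.0554 without the first and second 72 h array.

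The other 3 transient genes were less steady. Enpp4, an ecto-phosphodiesterase, rose by 1.03 and fell by 0.73. Ticrr, a replication initiation factor, rose by 0.61 and fell by 0.71, and Tada3, a histone acetylation adaptor, rose by 0.65 and fell by 0.60. Over 19 ways of processing, single arrays left out included, Tmem191c kept both calls in 18, Mpc1 and Smpd4 in 16, Notch4 in 13, Tada3 in 10, Enpp4 in 9 and Ticrr in 6. Enpp4 kept its fall in 1 of the 5 left-out settings (adjusted p up to 0.262). The gene that went down and came back, Akr1b8, an aldo-keto reductase, read 1642, 1620 and 1641 units, then 1191, 1204 and 1270, then 1465 and 1609. Its rise of 0.33 had adjusted p = 0.0291, and 0.0574 with the replicate block, and it was kept in 1 of 5 settings that left out an array (adjusted p up to 0.213). Its 8 h fall was kept in 0 of 6 (up to 0.136).

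Wild-type arrays give a second view of the transient genes. No array is shared, but both genotypes share the same fit and its estimate of spread, so the calls are not fully independent. The wild-type calls include control replicate 1, whose LIF label is in doubt as in knockout cells. All 7 transient genes lay above 0 at 8 h and below 0 from 8 h to 72 h in wild-type cells. Of these, 4 were called in the first comparison and 5 in the second, and 3 (Mpc1, Smpd4 and Tmem191c) in both. The wild-type fall was 2.26 for Notch4 on the log2 scale. In turn, the wild-type arrays called 103 genes at 8 h against control (0.904%), which define an early set without any knockout array, 90 of them higher (0.790%) and 13 lower (0.114%). In knockout cells 33 of the 90 rose from 8 h to 72 h (36.7%), 6 fell (6.67%) and 51 were not called, with a median of 0.38, against 12.7% and 6.52% of all genes and a median of 0.06. The 6 that fell were Mpc1, Smpd4, Ticrr and Tmem191c with Grm2, a glutamate receptor, and Mylpf, a myosin light chain, the last 2 named after their values were seen. Of the 13 lower genes, 6 fell further in knockout cells, 1 rose (Hmga2) and 6 were not called. The early set was thus more often higher than lower at 72 h, and the share that fell lay close to that of all genes. Drawn without wild-type RA replicate 3, the higher early set held 50 genes, of which 19 rose and 2 fell in knockout cells, and drawn without wild-type control replicate 1 it held 67, of which 32 rose and 4 fell.

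Continued genes rose at both steps. Stra8, a gatekeeper of meiosis that RA induces, read 148, 158 and 146 units in controls, 1238, 1875 and 2192 units at 8 h and 13279 and 12608 units at 72 h. The 3 groups did not overlap, with a rise of 3.51 ± 0.27 by 8 h and a further 2.91 ± 0.30 (adjusted p = 1.55e-05). Greb1l, a coregulator needed in kidney development, rose 10.3-fold from 8 h to 72 h, Aurkc, an Aurora kinase of germ cells, 5.14-fold, and Hoxb4, a homeobox gene, 4.58-fold. Cidea, a lipid droplet protein, read 259, 266 and 376 units at 8 h and 1231 and 1134 units at 72 h (2.00 ± 0.20). All of these kept the later rise without any single array. The 8 h rise was kept without any single array by Cyp26a1, Stra8, Hoxb4 and Cidea. Greb1l kept it in only 2 of 6 settings that left out an array (adjusted p up to 0.0878) and Aurkc in 0 of 6 (up to 0.212). Leaving out single arrays gave 11 to 28 continued genes, and the replicate block 39 within the 16 arrays and 64 among knockout arrays alone. Ndrg1, a stress-responsive gene, 1700097N02Rik, an unstudied transcript, and Slc7a3, a cationic amino acid transporter, fell at both steps. Slc7a3 went from 8775, 8483 and 7107 units to 4883, 5584 and 4370 and to 2079 and 2311 units (-1.17 ± 0.15 from 8 h to 72 h). With single arrays left out, the 8 h fall was kept in 1 of 6 settings by Ndrg1 (adjusted p up to 0.116), in 3 by 1700097N02Rik (up to 0.0699) and in 2 by Slc7a3 (up to 0.0902).

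Held genes had reached their level by 8 h as far as the arrays could resolve. Ankrd44, which serves protein phosphatase 6 as an ankyrin repeat subunit, read 283, 301 and 276 units in controls, 1052, 1220 and 1259 units at 8 h and 1279 and 1172 units at 72 h. The later arrays overlapped, with a difference of 0.06 ± 0.13 (adjusted p = 0.799), after a rise of 2.03 ± 0.12. Cdx1, a caudal homeobox gene, read 7.67, 35.5 and 53.5 units, then 1009, 401 and 806, then 1292 and 875. Its difference of 0.63 ± 0.45 (adjusted p = 0.378) leaves room for a further rise of more than 2-fold. H2-Bl, a class I antigen gene, differed by 0.86 ± 0.35, Tmtc1, an enzyme that adds mannose to cadherins, by 0.65 ± 0.30, and Prrx2, a mesenchymal homeobox gene, by 0.63 ± 0.47. Ltbp3, which tethers latent TGF-beta, had -0.57 ± 0.31 (adjusted p = 0.227), and with the replicate block -0.66 (adjusted p = 0.0446). Sorcs2, a sorting receptor, had 0.93 ± 0.36 (adjusted p = 0.0912), and 1.12 with the block (adjusted p = 0.0115). Among genes held lower, Etv6, an ETS repressor, read 475, 645 and 523 units, then 251, 255 and 351, then 325 and 307. Its difference was 0.16 ± 0.19, but -0.63 when the probe sets of the gene were averaged (adjusted p = 0.0460). Mcc, named for colorectal cancer, and Kndc1, a guanine nucleotide exchange factor, stood at 0.24 ± 0.38 and -0.15 ± 0.34, and neither kept its 8 h call without any one array.

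Targets of RA and genes that handle it rose between 8 h and 72 h. Of 24 early RA targets tested, a list drawn up with results of these samples in view, 16 rose from 8 h to 72 h and 0 fell, with a median of 1.85 (all genes 12.7% and 6.52%, median 0.06). At 8 h, 12 of the 24 were already called higher than in controls, with a median of 1.18 (0.861% of all genes). Without the 72 h arrays 19 of the 24 would have passed the filter on dim genes. Of 10 tested genes of retinoid metabolism and transport 8 rose and 0 fell (median 1.39), and 2 had been called higher at 8 h. With no filter on dim genes 16 of these were tested, 7 rose and 0 fell, with a median of 0.70. Cyp26b1, a second RA hydroxylase, read 44.2, 19.9 and 14.1 units at 8 h and 321 and 294 units at 72 h, at least 6.14-fold (2.62 ± 0.20, adjusted p = 8.96e-07). Its controls read 26.7, 41.4 and 52.2 units, so it stood at or near the floor until after 8 h. Dhrs3, which reduces retinal back to retinol, read 114, 142 and 149 units at 8 h and 610 and 593 units at 72 h (2.17 ± 0.27). Crabp2, which carries RA to the nucleus, read 414, 383 and 402 units at 8 h, within the control range of 267 to 472, and 2216 and 2110 units at 72 h (2.44 ± 0.25). Rbp4, the retinol carrier of plasma, rose by 1.18 ± 0.20. Cyp26a1 and Dhrs3 were called by 8 h, Dhrs3 in 1 of 6 settings that left out an array (adjusted p up to 0.122), and Crabp2, Cyp26b1 and Rbp4 were not (adjusted p of 0.932 or more).

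Receptors were less uniform. Rarb, the RA receptor whose promoter is printed above, read 29.1, 13.1 and 1.78 units in controls, 110, 96.7 and 96.1 units at 8 h and 346 and 310 units at 72 h (1.70 ± 0.21, adjusted p = 6.77e-05). Each group was clear of the others, but the 8 h call (at least 1.01 ± 0.19, adjusted p = 0.0177) was kept in 1 of 6 settings that left out an array (adjusted p up to 0.0902) and lost with the replicate block (adjusted p = 0.0608). Nrip1, a corepressor that RA induces, read 502, 577 and 700 units and then 1533 and 1523 units (1.38 ± 0.19). Averaging its probe sets gave 0.60 with adjusted p = 0.240. Ncoa2, a coactivator, rose by 0.65 (adjusted p = 0.0487) and was not called without any 1 of the 5 arrays (adjusted p up to 0.295) or with the block (0.0539). The other 7 of 10 genes tested were not called, and the list's median was -0.18, below that of all genes. Of the promoters of continued genes, 2 of 22 in the table (9.09%) held a spaced pair, both with the 5-base spacer. These are the Cyp26a1 and Rarb promoters printed above. The share was 0 of 46 for held, 0 of 7 for transient and 2 of 1047 (0.191%) for late higher genes. For all genes tested it was 0.432%, or 0.0432% with the 5-base spacer alone.

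Most of the Hox genes tested rose. Of 15 HoxA and HoxB genes tested, 12 rose and 0 fell, with a median of 2.64 and a range from 0.25 to 4.55. Only 4 of the 15 would have passed the filter on dim genes without the 72 h arrays, so the filter partly fixes this count and median. With no filter, 18 were tested, 12 rose and 0 fell, with a median of 1.90. Hoxa7 read 37.5, 18.9 and 21.2 units at 8 h and 364 and 379 units at 72 h (at least 7.43-fold, adjusted p = 3.51e-07). Hoxb6 (23.8, 3.58 and 7.82 units, then 780 and 646) and Hoxa4 (63.9, 14.7 and 6.30 units, then 751 and 461) showed the same low and high groups. Hoxb5 rose 8.16-fold and Hoxa10 7.20-fold. Of the named Hox genes only Hoxb4 was called by 8 h. The uncalled members were Hoxa5, Hoxa9 and Hoxb13, and averaging probe sets gave 2.95 for Hoxa5 (adjusted p = 3.89e-05) and 2.25 for Hoxa9, so for these 2 the probe sets disagree. Meis2 (7.60-fold), Meis1 (at least 5.68-fold) and Pbx3 (3.34-fold), cofactors that bind DNA with Hox proteins, rose, while 4 of the 7 genes of that list were not called. Without the 72 h arrays 5 of these 7 would have passed the filter. Meis1 was at the floor on all 8 h arrays and read 330 and 245 units at 72 h. The 11 Hox genes called without either 72 h array in turn left the median at 2.70 and 2.53.

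Extraembryonic endoderm genes formed the next block. Of 9 endoderm transcription factors tested, 7 rose and 0 fell, with a median of 2.32 (all genes 12.7% and 6.52%, median 0.06). Without the 72 h arrays 7 of the 9 would have passed the filter on dim genes, so the filter partly fixes this count and median. Gata6, a master factor of primitive endoderm, read 14.4, 63.9 and 41.2 units in controls, 175, 154 and 223 units at 8 h and 1636 and 1472 units at 72 h (3.09 ± 0.37, adjusted p = 5.08e-05). Gata4 read 23.4, 33.6 and 83.4 units at 8 h and 404 and 492 units at 72 h (2.91 ± 0.38), and Sox17, which acts after Gata6 in endoderm, read 18.6, 20.8 and 35 units and then 593 and 736 units. Foxa1, a pioneer factor, rose by 2.32 ± 0.26. Gata6 was called by 8 h (adjusted p = 0.0190), but in only 1 of 6 settings that left out an array (adjusted p up to 0.107). No 8 h array of Gata4 or Sox17 exceeded 83.4 units. Sox7 read 221, 260 and 283 units and then 902 and 982 units without a call (1.89 ± 0.66, adjusted p = 0.0578), and was called with the replicate block (2.05, adjusted p = 0.0107). On control replicate 1 Sox7 read 34.1 units against 259 and 186 on the other controls.

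Matrix genes made by endoderm moved alongside. Of 13 tested genes of the basement membrane and parietal endoderm 6 rose and 0 fell (median 1.41). Lamb1, a laminin chain, read 478, 544 and 283 units at 8 h and 3084 and 3132 units at 72 h (2.89 ± 0.32), and Serpinh1, the collagen chaperone Hsp47, read 755, 633 and 868 and then 5612 and 6756 units (3.05 ± 0.30). Col4a1, a chain of type IV collagen, went from 2016, 1327 and 1698 units to 8294 and 7330 (2.24 ± 0.33), and Plat, a plasminogen activator of parietal endoderm, rose 4.48-fold. In each of these 4 genes both 72 h arrays were more than 3 times the highest 8 h array. Of 7 visceral endoderm genes 4 rose, Dab2, Cubn and Rbp4 among them, and Apoe, an apolipoprotein, fell from 6664, 6612 and 6272 units to 2098 and 1980 units (-1.68 ± 0.16). The serum genes Afp, Ttr, Apoa1 and Apob, which mark mature visceral endoderm, did not reach 100 units on 2 of the 16 arrays and were not tested, with no signal over 101 units. Over 7 endoderm markers the summed signal was 3464 to 3957 units at 8 h and 16680 to 16988 at 72 h. In bulk samples, more cells of a type and more RNA per cell cannot be told apart.

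**Figure D3:**
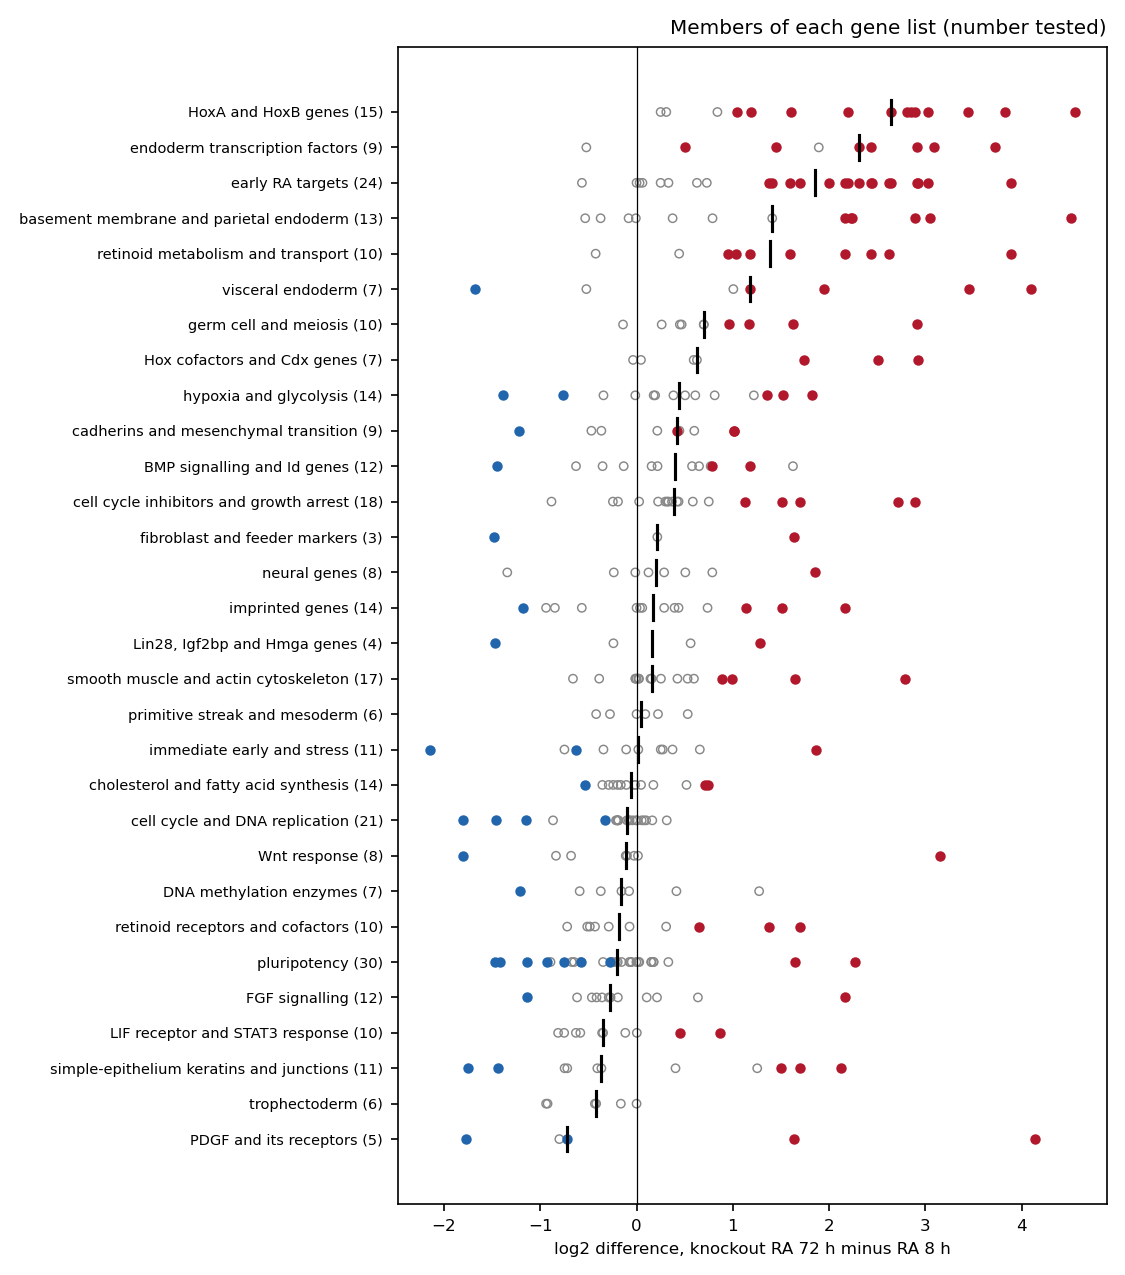
Each row is 1 of 30 gene lists with the number of genes tested, and each point is a gene's log2 difference between 72 h and 8 h of RA in knockout cells (x axis), red when called higher, blue when called lower and open when not called, with a black bar at the list's median. The Hox, endoderm factor and early RA target lists have medians of 2.64, 2.32 and 1.85, and 4 of 15, 7 of 9 and 19 of 24 of their genes passed the filter without the 72 h arrays.

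The core stem cell factors were not called. Pou5f1 read 17750, 15390 and 12719 units at 8 h and 13482 and 13714 units at 72 h, and Nanog 9653, 8608 and 10576 units and then 9027 and 9279 units. Their arrays overlapped between times (-0.16 ± 0.17 and -0.07 ± 0.22). Of 30 pluripotency genes tested, 2 rose, 7 fell and 21 were not called (median -0.21). Lefty1, an inhibitor of Nodal, rose from 771, 576 and 678 units to 3408 and 3060 units (2.27 ± 0.21, adjusted p = 6.08e-06). Nr0b1, also called Dax1, fell from 7584, 4953 and 6221 units to 2503 and 1985 units (-1.47 ± 0.21), Fgf4, a growth factor of the inner cell mass, fell by 1.14 and Gdf3, a ligand related to Nodal, by 0.94. These falls were of 1.9- to 2.8-fold, with the 72 h signals still over 1300 units. Of 10 genes of the LIF receptor and STAT3 response, Jak1, a receptor kinase, rose by 0.87 ± 0.15. Il6st, the receptor subunit gp130, rose by 0.45 (adjusted p = 0.0441) and was not called without any 1 of the 5 arrays (adjusted p up to 0.186). Socs3 differed by 0.00 ± 1.14.

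Growth control changed in part of its genes. Of 18 tested inhibitors and growth arrest genes 5 rose and 0 fell (median 0.39), also without either 72 h array. Pmp22, a myelin protein first found in growth-arrested cells, read 107, 150 and 171 units at 8 h and 1034 and 817 units at 72 h (2.71 ± 0.24). Gas1, another growth arrest gene, rose 7.43-fold, Ccng1, a cyclin that p53 induces, 3.24-fold, and Cdkn1a, the inhibitor p21, from 423, 326 and 343 units to 665 and 943 units (2.19-fold). Cdkn1a had adjusted p = 0.101 when its probe sets were averaged. Of 21 cell cycle and replication genes 0 rose, 4 fell and 17 were not called (median -0.10). Ccnd1, cyclin D1, fell from 1963, 2715 and 3109 units to 609 and 881 units (-1.80 ± 0.23). Myc, a growth-promoting factor, fell by 1.14 and Ccne1, cyclin E1, by 1.46. Without replicate 2 of 72 h only 1 of the 4 was called: Myc then had adjusted p = 0.0711 and Ccne1 0.167, whose 72 h arrays read 4267 and 1698 units. Mcm3, a helicase subunit, fell by 0.33, and kept its call in 1 of 5 settings that left out an array (-0.39 to -0.29). It was not called without replicate 1 of 72 h.

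Germ line and oncofetal genes gave small groups. Of 10 germ cell and meiosis genes tested, 7 would have passed the filter on dim genes without the 72 h arrays. The filter thus partly fixes the count and median of this list. Of the 10, 4 rose and 0 fell (median 0.70), beside 12.7% and 6.52% of all genes (median 0.06). Besides Stra8 these were Rec8, a meiotic cohesin (136, 143 and 136 units, then 487 and 375), Ddx4, the germ cell helicase Vasa (0.96 ± 0.18), and Mael, a piRNA factor (1.17, and 0.71 with adjusted p = 0.152 without replicate 1 of 72 h). Lin28a, which blocks let-7 maturation, fell from 2793, 2177 and 3215 units to 950 and 994 units (-1.47 ± 0.21), and Hmga2, a chromatin protein that let-7 represses, rose from 818, 616 and 522 units to 1529 and 1578 (1.28 ± 0.17). Dnmt3l, a cofactor of DNA methylation, was the 1 of 7 genes of its list to be called (-1.21 ± 0.20). Among 14 imprinted genes 3 rose and 1 fell: Igf2, a growth factor, rose 4.50-fold, Grb10, an adaptor that restrains insulin signalling, 2.86-fold (adjusted p = 0.353 with probe sets averaged), and Dlk1 by 1.13 (0.92 with adjusted p = 0.0841 without replicate 1 of 72 h). Phlda2, a growth restrainer of placenta, fell by 1.18 (adjusted p = 0.0693 without that array).

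Ligands and receptors of other pathways gave calls in both directions. Fgfr2, an FGF receptor, rose from 68.7, 65.8 and 174 units to 404 and 422 units (2.16 ± 0.45), while its pathway's ligand Fgf4 fell. Pdgfrb rose with Pdgfra (133, 110 and 138 units, then 504 and 305), while the ligands Pdgfa (-0.72 ± 0.17) and Pdgfc (-1.77 ± 0.43) fell. Without replicate 1 of 72 h Pdgfa had adjusted p = 0.114, and without replicate 2 Pdgfc had 0.145. Bmp4 fell from 5827, 5471 and 5249 units to 1658 and 2447 units (-1.45 ± 0.21) and its receptor Bmpr1a rose by 0.78 ± 0.14. Msx2, a target of BMP signals, rose by 1.18 (adjusted p = 0.0306), but was not called without any 1 of the 5 arrays. Dkk1, a secreted inhibitor of Wnt signalling, read 43.9, 90.2 and 79.1 units at 8 h and 649 and 614 units at 72 h (8.91-fold). Of these lists, 1 of 12 FGF, 2 of 12 BMP, 2 of 5 PDGF and 1 of 8 Wnt genes rose, and 1, 1, 2 and 1 fell. Of all genes, 12.7% rose and 6.52% fell. The FGF, BMP and Wnt counts lay near these shares and are not read as a result about those pathways.

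Epithelial and mesenchymal genes did not move as one. Of 11 keratin and junction genes 3 rose and 2 fell. Krt8 and Krt18, paired keratins of simple epithelium, rose 2.83-fold and 3.24-fold, and Krt18 read 294, 285 and 300 units at 8 h and 977 and 923 units at 72 h. Dsp, the desmosomal protein desmoplakin, rose by 2.12, with adjusted p = 0.0678 and 0.0788 without either 72 h array. Epcam, an adhesion protein of stem cells and epithelium, fell from 3017, 3104 and 4327 units to 1138 and 1416 (-1.44 ± 0.21). Among 9 cadherin and mesenchymal transition genes, Zeb1, a repressor of epithelial genes, rose by 1.01, Cdh2 by 1.01 and Fn1, fibronectin, by 0.42, and Cdh3 fell by 1.22. Without the 72 h arrays 7 of these 9 would have passed the filter on dim genes. With single arrays left out Cdh2 was called in 0 of 5 settings (adjusted p up to 0.188) and Fn1 in 1 (up to 0.154). Zeb1 lost its call without replicate 1 of 72 h (0.0597) and Cdh3 without replicate 2 (0.131).

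The remaining lists had few calls, to be read beside the 12.7% and 6.52% of all genes that rose and fell. Of 8 neural genes, Sox1, a factor of neural progenitors, rose from 105, 94.4 and 72.3 units to 343 and 305 units (1.85 ± 0.42, and adjusted p = 0.0626 without replicate 1 of 72 h). Among 6 primitive streak and mesoderm genes and 6 trophectoderm genes, 0 rose and 0 fell. The largest differences there were 0.53 for Meox1 and -0.94 for Ascl2. In the stress list of 11, Egr1, an immediate early factor, fell from 626, 826 and 764 units to 164 and 168 units (-2.15 ± 0.37), Dusp1, a phosphatase of MAP kinases, fell by 0.63 and Jun rose by 1.87, both lost without replicate 2 of 72 h (adjusted p of 0.0744 and 0.0529). Of 14 hypoxia and glycolysis genes 3 rose and 2 fell, with Ndufa4l2, a mitochondrial target of HIF-1, at 1.82 ± 0.29, Ddit4, an inhibitor of mTOR, at 1.36 ± 0.22, and Ndrg1 in the opposite direction. Egln3, a HIF hydroxylase, rose by 1.53 (adjusted p = 0.0758 and 0.0632 without either 72 h array). Of 14 lipid synthesis genes 2 rose, the desaturases Scd2 (0.71 ± 0.14) and Scd1 (0.75), and Idi1, an isomerase of the sterol pathway, fell by 0.54. With probe sets averaged Scd2 and Scd1 had adjusted p of 0.252 and 0.354. With single arrays left out Scd1 kept its call in 4 of 5 settings (0.55 to 0.92) and Idi1 in 1 of 5 (-0.61 to -0.47). Both lost it without replicate 1 of 72 h. Some counts above include genes named only after their values were seen: Lefty2 (1.64), Ccng2 (1.51), Amn (1.95) and Col4a2 (2.23) rose, and Pdk1 (-0.77) and Cldn6 (-1.75) fell. Thy1, a fibroblast marker that other cells also make, fell by 1.48 and lost its call without either 72 h array (adjusted p up to 0.135).

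The wild-type change over the same interval was used to ask where knockout cells differ. In wild type 2540 genes were called (22.3%), 1608 higher (14.1%) and 932 lower (8.18%). Of the 1445 genes higher in knockout cells 973 were also called higher in wild type (67.3%, or 60.5% of 1608), and of 743 lower 512 were shared (68.9%, or 54.9% of 932). The difference between the genotypes' changes was tested directly, and 42 genes were called (0.369%), 40 with a change lower in knockout cells (0.351%) and 2 with a higher one (0.0176%). At an unadjusted p under 0.05 there were 704. Of the 42, 38 rose in wild type while 26 were not called in knockout cells, and 13 were at the floor on all 5 knockout arrays. Those 13 could pass the filter on dim genes only through other arrays. The floor allows them no knockout change, so the wild-type change alone sets the direction of their difference. All differences in this test are computed from floored values and are not bounds.

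**Figure D4:**
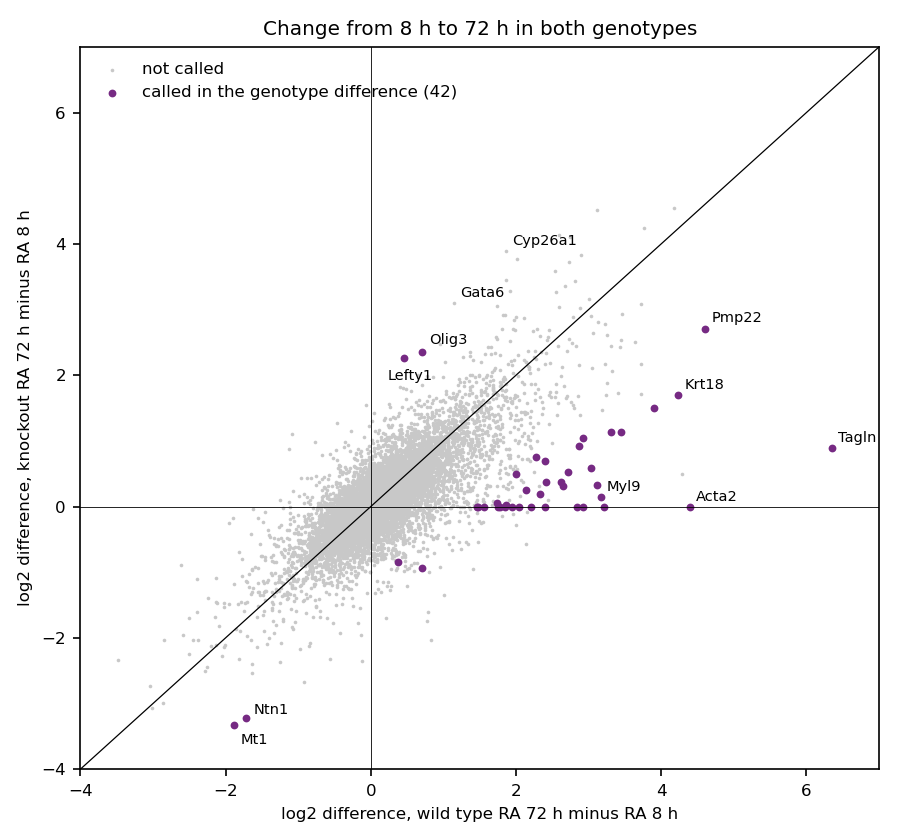
Each point is a gene's log2 difference between 72 h and 8 h of RA in wild-type (x axis) and knockout cells (y axis), with purple for the 42 genes called in the genotype difference and a line at equal change. Most purple points lie to the right of the line, among them Tagln, Acta2 and Myl9, and 2 lie to its left, Lefty1 and Olig3.

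Of 17 tested genes of smooth muscle and the actin cytoskeleton, 5 were called in this test: Tagln, Acta2, Cnn1, Myl9 and, named after its values were seen, Tpm1. Tagln, the smooth muscle protein transgelin, read 3.79, 11.1 and 7.01 units at 8 h and 67.5 and 128 units at 72 h in knockout cells, and 7.7, 47.2 and 18.8 units and then 3654 and 4552 units in wild type. Both genotypes were at the floor at 8 h, and wild type was far higher at 72 h: the changes differed by -5.46 ± 0.34 (adjusted p = 9.38e-07). The knockout's own rise of 0.89 (adjusted p = 0.0183) was lost without replicate 2 of 72 h (0.43, adjusted p = 0.302). Acta2, smooth muscle actin, read 172, 132 and 169 units and then 158 and 152 units in knockout cells, a flat course, and rose by 4.39 in wild type. That difference was -4.41 ± 0.65 (adjusted p = 0.0117), or adjusted p = 0.166 without wild-type 72 h replicate 2, and 0.0513 and 0.0682 without either knockout 72 h array. Cnn1, a calponin, and Acta1, a skeletal actin that the list does not hold, were at the floor on all 5 knockout arrays and rose in wild type, and Myl9, a myosin light chain, read 57.3 and 65.2 units at 72 h in knockout cells. Of the 17, 4 rose in knockout cells: Cald1, the actin-binding caldesmon (2.79 ± 0.18), and Tpm2, a tropomyosin (1.65 ± 0.20), with Tagln and Ccn1, a matrix signal. The call of Ccn1 (adjusted p = 0.0302) was kept in 1 of 5 settings that left out an array, and lost without either 72 h array. In wild type 15 of the 17 rose. The list's median was 0.16 in knockout and 1.68 in wild-type cells. Of all genes, 12.7% rose in knockout and 14.1% in wild-type cells, with a median of 0.06 in each. Without the 72 h arrays 14 of the 17 would have passed the filter on dim genes, so the filter partly fixes these counts and medians.

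Other named genes in the genotype difference were Anxa3, an annexin (knockout 1.13, wild type 3.31), Pdzrn3, a ubiquitin ligase (0.18 and 2.33), Gbp2, a guanylate-binding protein (0.00 and 1.94), Pmp22 (2.71 and 4.61), Krt18 (1.70 and 4.24) and Dlk1 (1.13 and 3.45). Mt1 and Ntn1 fell further in knockout cells (-3.33 against -1.88 for Mt1, and -3.23 against -1.72 for Ntn1). Olig3, a neural progenitor factor named after its values were seen, rose by 2.35 and 0.71, and the difference was 1.64. Lefty1 rose by 2.27 in knockout and differed by 0.46 in wild-type cells, where it read 1716 to 2194 units at 8 h, above the knockout's 576 to 771. The size of this group depends on single arrays, since without wild-type 72 h replicate 2 only 1 gene was called, and without knockout 72 h replicate 2 only 2 were. Cyp26a1 rose by 3.89 in knockout and 1.87 in wild-type cells, a difference of 2.03 ± 0.46 that was not called (adjusted p = 0.0901).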

How the data were processed

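RNA of 18 samples was hybridised to Affymetrix arrays. The values the authors deposited are MAS5 signal intensities, 1 for every probe set on an array, as the submitters' processing notes name the method; its version and settings were not given in these sources. Arrays were scaled so that the mean without the outer 2% at each end was 500 units, floored at 50 units and log2 transformed. Of 45101 probe sets, 34958 had 1 gene symbol, 932 several and 9211 were not listed; 34754 of the first matched RefSeq, and 0 symbols changed. The brightest probe set stood for each of 18194 genes, and a gene was tested if 2 of 16 arrays reached 100 units. limma 3.58.1 (R 4.3.3) fitted group means to the 16 arrays of 6 replicated groups, with an intensity trend and 10 residual degrees of freedom, and p-values were adjusted by Benjamini-Hochberg over 11388 genes. Errors after ± are standard errors, and "called" means an adjusted p under 0.05. The labels do not say that repeats were separate cultures, so p-values reflect only how these samples varied, and that variation may be technical. The small number of arrays limits the precision.

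Numbers in the knockout titles (a title without one taken as 1) were treated as pairing the samples only in the replicate block. The main fit had no pairing term. All 7 same-numbered pairs deviated together, with correlations from 0.106 to 0.282 (different numbers, -0.282 to 0.173). At 72 h the 2 deviations mirror each other, so these pairs are not independent. Replicate 2 of 72 h correlated at 0.173 with 8 h replicate 3, above its 0.106 with 8 h replicate 2, so the pairing is not established. Named genes were Cyp26a1, the 12 largest non-overlapping rises and falls, up to 8 of each time class, the 8 of smallest adjusted p in the genotype difference, and of each list up to 4 called members or, with none called, the 2 of largest change. Members and lists were chosen with earlier results of these data known. Alternatives were another floor, offset, filter, scaling, probe-set summary, sample set or trend, the block, a 2-fold minimum and single arrays left out. The fit was tested on simulated data. Tools were Python 3.11.15, numpy 2.4.6, pandas 2.3.3, scipy 1.17.1 and matplotlib 3.10.9.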

Additional observations from a re-analysis of the deposited data

Results flagged for a closer look

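The change from 8 h to 72 h differed between the genotypes in 42 genes by limma's test of the difference itself (adjusted p under 0.05). Among the named genes, the knockout change minus the wild-type change on the log2 scale was -5.46 for Tagln, -4.41 for Acta2, -3.02 for Myl9, -2.92 for Acta1 and -2.05 for Cnn1. It was -2.54 for Krt18, -2.32 for Dlk1, -2.18 for Anxa3, -2.14 for Pdzrn3, -1.94 for Gbp2 and -1.90 for Pmp22. Mt1 (-1.45) and Ntn1 (-1.50) fell in both genotypes, further in knockout cells, and Lefty1 (1.81) rose more in knockout cells. Acta1 and Cnn1 were at the floor on every knockout RA array, so the wild-type change alone sets the direction of their difference. Each group held 2 or 3 arrays, too few to tell an outlying array by its group's spread. Counts with single arrays left out are given below.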

How the results depend on the processing

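For the 116 named genes called between 72 h and 8 h, 1506 differences were recomputed: 1389 kept direction and call and 117 kept only the direction. Of the uncalled named genes, 1 reversed, Etv6, at -0.63 with probe sets averaged (adjusted p = 0.0460). Of the 116, 83 kept the call without any single array of 72 h or 8 h. The 2188 calls between 72 h and 8 h became 943 with a 2-fold minimum and 1011 to 1901 with single arrays left out. The replicate block gave 2520 calls among knockout arrays alone, 1963 of them shared, and 2014 within the 16 arrays, and quantile scaling 2033 (1209 higher and 824 lower). Of named genes, the first block lost Akr1b8 and Ncoa2 and added Ltbp3 and Sorcs2; the second, chosen after seeing the data, lost Gpx2, Ncoa2, Il6st, Mcm3, Msx2 and Cdh2 and added Sorcs2; neither changed another of these calls. The 109 calls of 8 h against control became 62 with only those arrays, 192 with the block among knockout arrays alone, 116 with it within the 16 arrays, 70 without both control arrays of replicate 1 (chosen after seeing the data), and 36 to 75 with single arrays left out. For 72 h against control, 2622 calls became 1188 with the 2-fold minimum and 1358 to 2140 with single arrays left out. The 42 genotype differences became 197 with a floor of 100 units, 9 with 32 units added, 23 with quantile scaling, 124 without a filter, 14 with a filter at 200 units, 68 with probe sets averaged, 9 with the 10 RA arrays or only the arrays compared, 74 without trend, 17 with the knockout block, and 1 to 40 with single arrays left out. Of the genes higher early in wild type, 33 of 90 rose in knockout cells, 8 of 13 with only the arrays compared, and 19 of 50 to 43 of 104 with single arrays left out. The cause of these shifts was not tested, except that fewer arrays leave fewer degrees of freedom. The block was not run for wild-type arrays, since 2 titles in each of their 8 h groups carry no number. With probe sets averaged, 36 of the 116 named differences shrank by over 1.5 times, 32 of them still called, and 15 of the 116 were not called. Signals near the floor limit what can be said of dim genes.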

Other observations

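Other gene families, chosen after their values were seen, also held called genes between 8 h and 72 h in knockout cells, where 12.7% of all genes rose and 6.52% fell. Of 5 collagen prolyl and lysyl hydroxylases, which modify collagen before secretion, 3 rose and 0 fell. P4ha2 read 108, 89.7 and 105 units at 8 h and 726 and 745 units at 72 h (2.87 ± 0.27), P4ha1 rose by 1.44 and Plod2 by 1.21, each with no overlap between times. Of 10 cathepsins, lysosomal proteases, 5 rose and 0 fell. Ctsl read 5534, 6378 and 6301 units and then 14003 and 13914 units (1.20 ± 0.14), while Ctsd and Ctsh lost their calls without at least one 72 h array (adjusted p of 0.0863 and 0.0861 without replicate 2).

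Both metallothioneins tested fell: Mt2 read 18688, 18888 and 21765 units at 8 h and 4309 and 4670 units at 72 h (-2.14 ± 0.11), beside the fall of Mt1. The 6 glutathione peroxidases divided, with Gpx3 (2.10 ± 0.21), Gpx8 (1.88) and Gpx7 (0.73, adjusted p = 0.111 without replicate 1 of 72 h) higher and Gpx1 (-0.73 ± 0.10) and Gpx2 lower. Gpx4 rose by 0.67 by 8 h and was not called afterwards (0.15 ± 0.11). Gli2, a factor of Hedgehog signalling, fell from 1559, 1870 and 2131 units to 615 and 646 units (-1.54 ± 0.17), and Gli1 fell by 2.27 (adjusted p = 0.0583 without replicate 1 of 72 h). Among TGF-beta genes, the receptors Tgfbr2 (1.57 ± 0.34) and Tgfbr3 (1.77 ± 0.31) rose while the ligand Tgfb1 fell.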
